A study of Mus musculus with 8 samples.

Results

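The genes described here are 6 keratins (Krt5, Krt7, Krt8, Krt14, Krt18 and Krt19), the transcription factor gene Trp63 and Vim, which encodes vimentin. They were chosen by name. Every probe that the platform annotation gives to one of these symbols was taken, which gave 8 probes, 1 for each of the 8 genes, out of 25697 probes and 16593 named genes on the array. All 8 genes were bright enough to be tested. The samples were 4 kidney tumors that the labels call Wilms tumors, each from a mouse transgenic for Lin28, and 4 control kidneys that the labels call normal. Tumor 1 and control 1 came from animals of 5 weeks, and tumors and controls 2 to 4 from animals of 4 months. The labels call the samples biological replicates but do not say which came from separate animals, so p-values measure the spread between these samples. The sources used here do not give the promoter of the transgene, the strain or the sex of the animals.

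Intermediate filaments are the tough, rope-like part of the cytoskeleton, and a cell's choice of filament protein follows its type. Keratins form filaments only as pairs of a type I and a type II protein. Krt8 and Krt7 (type II) pair with Krt18 and Krt19 (type I) in simple epithelia such as the kidney's collecting duct. Krt5 (type II) pairs with Krt14 (type I) in the basal layer of stratified epithelia, where the p63 protein of Trp63 keeps the basal state. Vimentin is the filament of mesenchymal cells, podocytes, endothelium and leukocytes, and injured or immature kidney epithelium can make it as well.

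Of the 8 genes 5 rose in the tumors (Krt14, Krt18, Krt19, Trp63 and Vim), 0 fell and 3 did not pass the test (Krt5, Krt7 and Krt8). Among all 11413 tested genes and unnamed probes, 44.4% passed, of which those that rose were 32.2% and those that fell 12.2% of all tested (limma, Benjamini-Hochberg adjusted p under 0.05). The median change of the 8 genes was 2.35 on the log2 scale, against 0.35 for all tested. Tumors and controls did not overlap for 4 of the 8 genes, Krt18, Krt19, Trp63 and Vim, all higher in tumors. Of all tested, 40.3% did not overlap and 30.1% were higher in tumors without overlap. Of the 4 simple keratins Krt18 and Krt19 rose, and Krt7 and Krt8 did not pass. The count of 5 was the same without tumor 1, without control 2 and without both, and it was 4 without any one of the other 6 arrays, where the call for Krt14 was lost.

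**Figure D1:**
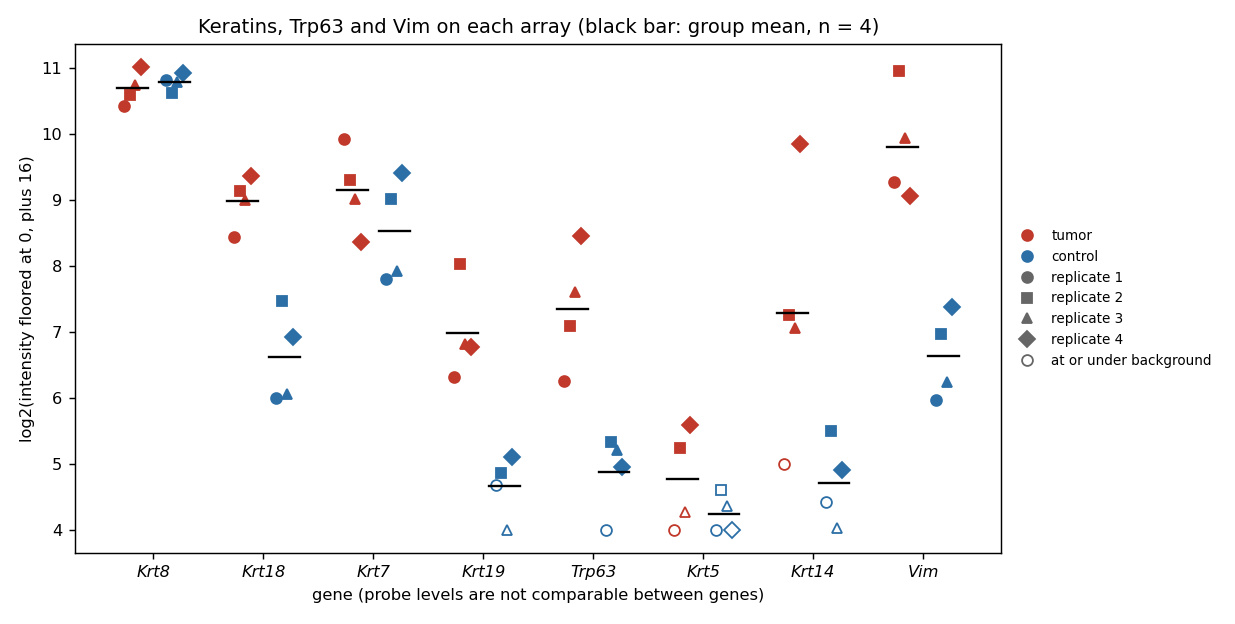
Values of the 8 genes on each of the 8 arrays, as log2 of the intensity floored at 0 plus 16, with tumors left of controls for each gene. Marker shapes give the replicate number, open markers are at or under the background of their array, and black bars are group means. Krt8 lies at the same height in both groups, while the tumors lie above all controls for Krt18, Krt19, Trp63 and Vim.

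Values are the authors' background-subtracted intensities, whose mean is the same on all 8 arrays. The limit for a signal above background was set at 3 times an array's noise, which is 27.6 intensity units on tumor 1 and 10.7 to 16.5 on the other 7 arrays. Changes were computed on log2 of the intensity plus 16, so those of dim genes are understated. The scaling matters for the size of a change. Where arrays were scaled to the same median, that median was taken over the probes above the background limit of each array. With the authors' scaling the median change was 0.35 log2 units and 72.6% of the called genes were higher, against 0.04 and 55.4% with quantile normalization, 0.20 and 59.2% with arrays scaled to the same median, and -0.01 and 50.1% with cyclic loess. The X-linked gene Xist, which is active in females, read 155 to 301 in tumors and 2.20 to 34.8 in controls on its brighter probe, so sex and tumor cannot be told apart here. Neither probe for Lin28a exceeded background on any of the 8 arrays, so they do not check the transgene. In bulk tissue, fewer cells of a type and less RNA per cell cannot be told apart.

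Krt8 encodes the type II keratin of simple epithelia, the one that every kidney epithelium with keratin filaments shares. Its intensity was 1365, 1529, 1704 and 2060 in tumors 1 to 4, against 1805, 1565, 1752 and 1940 in controls 1 to 4. The groups overlapped, and tumors held both the lowest and the highest value. The change was -0.10 ± 0.18 (SE) log2 units with a 95% confidence interval of -0.51 to 0.32 (limma adjusted p = 0.693). It turned to 0.03 with quantile normalization and to 0.0043 with the arrays of 4 months alone. Relative to the median gene it was -0.44 with the authors' scaling, -0.49 with arrays scaled to the same median, -0.11 with cyclic loess and -0.01 with quantile normalization.

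Krt18, the type I partner of Krt8, read 331, 549, 495 and 648 in tumors 1 to 4, against 48.0, 161, 50.6 and 106 in controls 1 to 4. Every tumor lay above every control, and the lowest tumor exceeded the highest control by a clear margin. The mean was 506 ± 133 in tumors and 91.5 ± 53.7 in controls (n = 4 each, SD). Krt18 rose by 2.37 ± 0.36 (SE) log2 units, or 5.18-fold, with a 95% confidence interval of 1.55 to 3.20 (limma adjusted p = 0.00161). Relative to the median gene the rise was 2.03 with the authors' scaling and 1.95 to 2.01 with the 3 other scalings. The interval for Krt18 lies wholly above that for Krt8.

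Krt8 and Krt18 are neighbouring genes on chromosome 15 of the GRCm38.p6 assembly, with no other protein-coding gene between their starts, and Krt18 is the one type I keratin of the set that lies in the type II cluster. The 250 bases before the start of each are shown because these neighbours and partners changed unequally, and those of Vim because it had the largest change of the set. The sequences are RefSeq's for GRCm38.p6, written 5′ to 3′ on the strand of the gene. Capitals mark matches to the 4 motifs searched on both strands, the GC box GGGCGG, the TATA box TATAAA, the AP-1 site TGANTCA and the E-box CAGGTG, which Zeb and Snail proteins can bind. The windows are chr15:102004343-102004592 (minus strand) for Krt8, chr15:102027966-102028215 (plus strand) for Krt18 and chr2:13574061-13574310 (plus strand) for Vim.
Krt8: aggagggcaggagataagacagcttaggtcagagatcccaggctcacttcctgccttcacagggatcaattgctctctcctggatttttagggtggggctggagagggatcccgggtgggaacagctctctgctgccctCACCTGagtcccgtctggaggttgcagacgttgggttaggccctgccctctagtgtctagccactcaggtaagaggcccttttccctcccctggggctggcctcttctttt
Krt18: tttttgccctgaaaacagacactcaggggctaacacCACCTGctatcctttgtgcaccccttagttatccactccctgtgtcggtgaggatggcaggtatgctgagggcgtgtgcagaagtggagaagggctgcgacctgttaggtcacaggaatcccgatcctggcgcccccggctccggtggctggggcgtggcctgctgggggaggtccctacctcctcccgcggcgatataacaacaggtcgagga
Vim: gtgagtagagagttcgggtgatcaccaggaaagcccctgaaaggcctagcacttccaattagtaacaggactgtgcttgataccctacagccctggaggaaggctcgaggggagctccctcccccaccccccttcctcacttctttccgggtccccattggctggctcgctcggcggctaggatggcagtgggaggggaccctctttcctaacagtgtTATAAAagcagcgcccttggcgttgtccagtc

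Krt8 and Krt18 each held 1 match to the E-box and 0 to the other 3 motifs. The match began 111 bases before the start in Krt8 and 214 bases before it in Krt18. Vim held 1 TATA box that began 32 bases before the start, and 0 matches to the other motifs. Of 32851 windows of this length in the RefSeq table, 17.2% held the E-box, 12.4% the TATA box, 32.7% the GC box and 6.75% the AP-1 site. The GC content of the windows was 58.0% for Krt8, 60.4% for Krt18 and 58.4% for Vim, against a median of 52.4%. Krt5, Krt7 and Krt14 also had a window, and Krt19 and Trp63 were not in the table. A match describes the letters of the window and is no measured site.

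The unequal change of the partners was also read within each array, as the log2 value of Krt8 minus that of Krt18. This difference was 1.99, 1.45, 1.75 and 1.65 in tumors 1 to 4, against 4.83, 3.16, 4.73 and 4.01 in controls 1 to 4. All 4 tumors lay below all 4 controls, and the tumors were closer to each other. The mean was 1.71 ± 0.23 in tumors and 4.18 ± 0.78 in controls (n = 4 each, SD), a difference of -2.47. The two-sided exact permutation test gave p = 0.0286, the smallest that 4 against 4 arrays allow, and 0.0857 adjusted over the 3 pairs tested. The pair thus did not pass. With so few arrays 1 pair cannot pass that adjustment by itself, however fully the groups separate, so the miss does not decide the question. The difference was -2.91 to -2.0 under the alternatives.

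**Figure D2:**
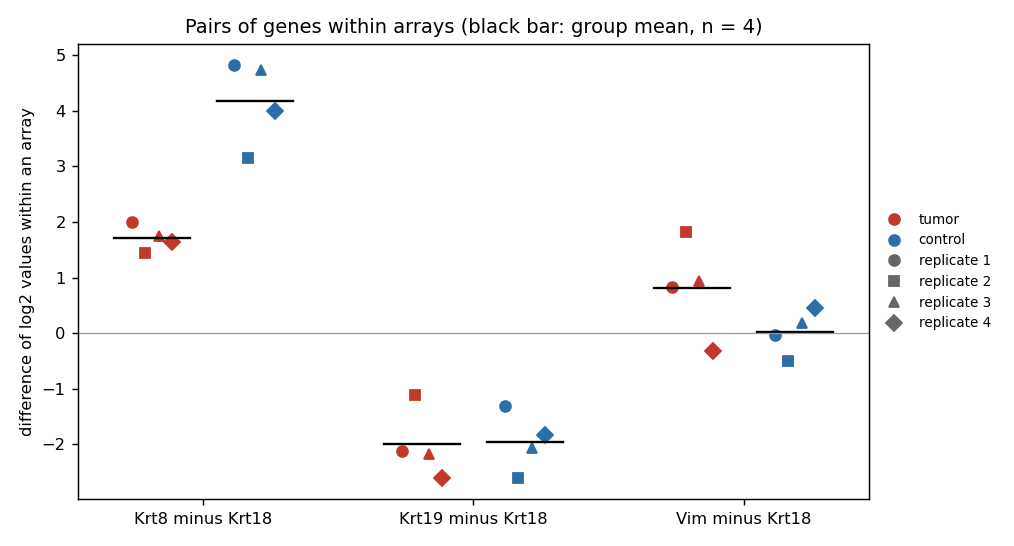
Difference of 2 genes' log2 values within each array for the 3 pairs tested, with tumors left of controls, marker shapes for the replicate number and black bars for group means. Krt8 minus Krt18 is between 1.45 and 1.99 in tumors and between 3.16 and 4.83 in controls, while the groups overlap in the other 2 pairs.

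Krt7, a type II keratin of ducts and urothelium, read 954, 615, 503 and 315 in tumors 1 to 4, against 207, 504, 226 and 662 in controls 1 to 4. The groups overlapped widely: tumor 4 was below controls 2 and 4. The change of 0.62 ± 0.44 (SE) log2 units did not pass (95% confidence interval -0.39 to 1.62, limma adjusted p = 0.285). Krt7 was also the gene of the set with the smallest p for a difference between ages. The tumor effect at 5 weeks minus that at 4 months was 2.01 ± 0.86 (SE) log2 units, which did not pass either (adjusted p = 0.469). It rests on 1 pair of arrays at 5 weeks. Of the 8 genes 0 passed the interaction test, and 0 had an unadjusted p under 0.05. Among all tested genes 1.48% passed that interaction test, and the adjusted p of the other 7 genes was 0.667 to 0.990.

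Krt19, a small type I keratin of ducts, read 63.9, 246, 97.2 and 93.5 in tumors 1 to 4. Controls 1 to 4 read 9.70, 13.1, 0.00 and 18.2, of which only 2 were above background. All tumors were above all controls, with tumor 2 the highest. Krt19 rose by 2.33 ± 0.38 (SE) log2 units, with means of 125 ± 82.0 in tumors and 10.3 ± 7.67 in controls (n = 4 each, SD; limma adjusted p = 0.00220). Since controls 1 and 3 were at or under background, the fitted change moved with the constant used, and was 3.24 with 4 added and 1.27 with 64 added.

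Within arrays, Krt19 minus Krt18 averaged -2.0 ± 0.63 in tumors and -1.95 ± 0.54 in controls (n = 4 each, SD). The difference of -0.05 between the groups did not pass (two-sided exact permutation p = 0.886), and its sign turned in 6 of 16 alternatives, with values from -0.64 to 0.70. Krt19 was near background in the controls, which limits this comparison.

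Trp63 encodes p63, a relative of p53 that is needed for basal and stratified epithelia. Its probe read 60.8, 120, 179 and 336 in tumors 1 to 4, against -0.40, 24.1, 21.0 and 14.8 in controls 1 to 4. Each tumor lay above each control, and 3 of 4 controls were above background. Trp63 rose by 2.48 ± 0.47 (SE) log2 units, with means of 174 ± 118 in tumors and 14.9 ± 10.9 in controls (n = 4 each, SD; limma adjusted p = 0.00392). The rise was 3.30 with 4 added and 1.47 with 64 added. The annotation does not say which of the gene's isoforms the probe measures.

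Krt14, the type I keratin of basal cells, read 15.9, 137, 117 and 909 in tumors 1 to 4, against 5.40, 29.2, 0.20 and 14.1 in controls 1 to 4. Tumor 4 was far above the others, and tumor 1 was under its background and below control 2, so the groups overlapped. The rise was 2.58 ± 0.87 (SE) log2 units (limma adjusted p = 0.0386), with means of 295 ± 413 in tumors and 12.2 ± 12.7 in controls (n = 4 each, SD). The call was lost without any one of tumors 2, 3 and 4 and controls 1, 3 and 4 (change 1.72 to 2.66, adjusted p = 0.0543 to 0.0972), with each of the other 3 scalings, with 64 added, with no filter and with every probe by itself. Without tumor 1 the rise was 3.34 and without tumor 1 and control 2 it was 3.61.

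Krt5, the type II partner of Krt14, read -26.4, 21.9, 3.20 and 32.1 in tumors 1 to 4, against -9.10, 8.20, 4.60 and -0.30 in controls 1 to 4. Only tumors 2 and 4 were above background, and no control was. The change of 0.53 ± 0.36 (SE) log2 units did not pass (95% confidence interval -0.29 to 1.36, limma adjusted p = 0.260), and no fold is given since most arrays hold no measured signal. Tumor 4 held the highest value of Krt5, Krt14 and Trp63 alike. Krt14 minus Krt5 within arrays was 1.00, 2.01, 2.79 and 4.27 in tumors 1 to 4, against 0.42, 0.90, -0.35 and 0.91 in controls 1 to 4, and was not tested because Krt5 was above background on 2 arrays.

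Vim read 601, 1976, 964 and 517 in tumors 1 to 4, against 46.3, 110, 60.0 and 150 in controls 1 to 4. The lowest tumor lay far above the highest control. Vim rose by 3.17 ± 0.46 (SE) log2 units, or 8.98-fold, with means of 1014 ± 670 in tumors and 91.5 ± 47.5 in controls (n = 4 each, SD; limma adjusted p = 0.00131). It had the largest change of the 8 genes. Of all tested, 98.8% had a lower signed change, a share that includes every gene that fell. Relative to the median gene the rise was 2.82 with the authors' scaling and 2.79 to 2.85 with the 3 other scalings.

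Vim minus Krt18 within arrays was 0.83, 1.82, 0.94 and -0.32 in tumors 1 to 4, against -0.04, -0.50, 0.19 and 0.45 in controls 1 to 4. The groups overlapped, with tumor 2 the highest and tumor 4 below 3 controls. The difference between the groups of 0.79 did not pass (two-sided exact permutation p = 0.171, adjusted over 3 pairs 0.257). With 4 arrays a group, no difference between the rises of Vim and Krt18 was detected.

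**Figure D3:**
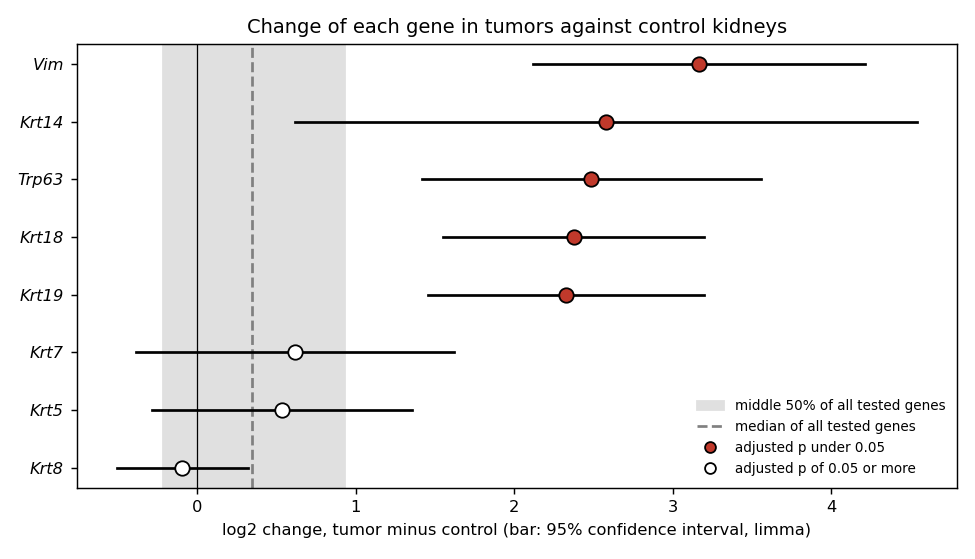
Change of the 8 genes on the log2 scale, tumor minus control, with 95% confidence intervals from limma over 4 against 4 arrays. Filled points passed an adjusted p of 0.05, the dashed line is the median of all tested genes at 0.35, and the grey band from -0.22 to 0.93 holds the middle 50% of them. Krt8 is the lowest at -0.10 and Vim the highest at 3.17.

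Other keratins and other filament genes were taken from lists made with earlier results of these data known. Of 13 further keratins on the array 6 were tested, of which 3 rose, 0 fell and 3 did not pass, with a median change of 1.56. By comparison, 32.2% of all tested rose and 12.2% fell, with a median change of 0.35. Krt17, a type I keratin of basal and appendage cells, read 8.80, 152, 48.9 and 347 in tumors 1 to 4, while all 4 controls were at or under background, between -2.90 and 2.60. It was at least 3.47-fold higher in tumors (limma adjusted p = 0.0171; 0.0551 with no filter and 0.0600 with every probe by itself, where the call is lost), and tumor 4 was again the highest. Krt23, a type I keratin of simple epithelia, read 231, 174, 464 and 550 in tumors, against 35.8, 133, 36.2 and 59.0 in controls, a rise of 2.18 ± 0.45 (SE) log2 units (adjusted p = 0.00545). Krt20, a keratin of the superficial urothelium, rose by 1.92 ± 0.40 (adjusted p = 0.00593), with 18.3 to 103 in tumors and -6.60 to 12.7 in controls. Krt15, a basal keratin, had a change of 1.19 ± 0.49 that missed the threshold (adjusted p = 0.0791). Krt10, a keratin of the suprabasal epidermis, differed by -0.07. Krt1, Krt4, Krt6a, Krt6b, Krt12, Krt13 and Krt16 had no signal above background on any of the 8 arrays.

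Of 6 tested genes for other intermediate filaments and lamins 5 rose (83.3%, against 32.2% of all tested) and 0 fell, with a median change of 2.01. Nes encodes nestin, which forms filaments together with vimentin. Its intensity was 399, 1044, 791 and 402 in tumors 1 to 4, against 37.6, 129, 51.9 and 98.0 in controls 1 to 4, a rise of 2.82 ± 0.41 (SE) log2 units (limma adjusted p = 0.00136). Des, the filament of muscle, rose by 2.45 ± 0.35 and Synm, which joins desmin and vimentin filaments, by 1.12 ± 0.31. Among the lamins of the nucleus, Lmnb1 had the largest rise of this list, 3.57 ± 0.32, with 419 to 1205 in tumors and 35.4 to 45.2 in controls. Lmnb2 rose by 1.56 ± 0.22, while Lmna had a change of 0.31 ± 0.31 that missed the threshold (adjusted p = 0.438).

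**Figure D4:**
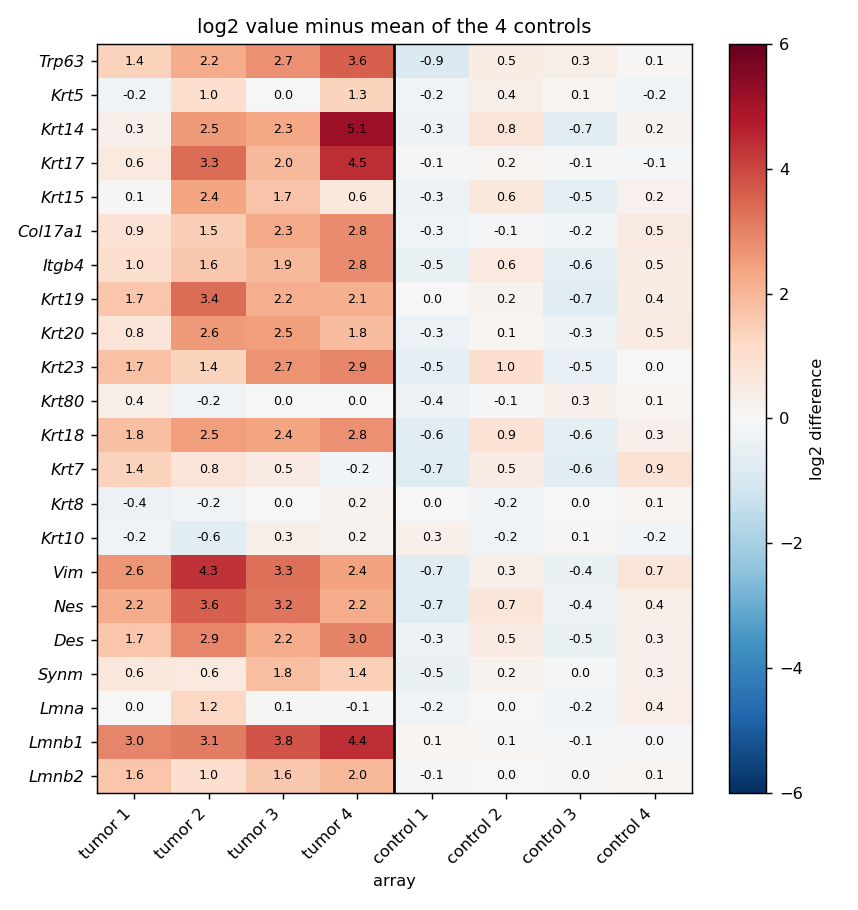
Log2 value of each gene on each array minus the mean of the 4 controls for that gene, with tumors in the left columns. The genes are the 8 described here, all tested genes of the lists of other keratins and of other filaments and lamins, and Col17a1 and Itgb4. Krt14 reaches 5.1 and Krt17 4.5 in tumor 4, Vim reaches 4.3 in tumor 2, and Krt8 stays between -0.4 and 0.2.

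Keratins are anchored at desmosomes between cells and at hemidesmosomes on the basement membrane, and plakins link them there. Of 10 tested genes of this kind 5 rose, 1 fell and 4 did not pass, with a median change of 0.89. By comparison, 32.2% of all tested rose and 12.2% fell, with a median change of 0.35. The 2 largest rises were both hemidesmosome genes, but not all hemidesmosome genes of the list rose. Itga6 and Dst did not pass (0.97 ± 0.57 and 0.14 ± 0.27 (SE) log2 units, limma adjusted p = 0.192 and 0.702). The plakin gene Plec rose by 0.81 ± 0.27 (adjusted p = 0.0374). Itgb4, the integrin of hemidesmosomes, read 140, 221, 279 and 525 in tumors 1 to 4, against 39.7, 98.5, 35.5 and 88.8 in controls 1 to 4, a rise of 1.85 ± 0.42 (SE) log2 units (limma adjusted p = 0.00787). Col17a1, a transmembrane collagen of hemidesmosomes, also rose by 1.85 ± 0.41 (adjusted p = 0.00724), with 18.9 to 121 in tumors and -7.50 to 11.7 in controls. Both were highest in tumor 4. Pkp3, a plakophilin of desmosomes, was the gene that fell, by 0.69 ± 0.19 log2 units (adjusted p = 0.0176), with 24.9 to 50.3 in tumors and 63.2 to 77.5 in controls.

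Of 8 tested p53 family members and genes reported as p63 targets 6 rose and 0 fell, with a median change of 1.04. Fgfr2, a receptor for fibroblast growth factors, rose by 2.25 ± 0.32 (SE) log2 units (limma adjusted p = 0.00118), with 56.0 to 178 in tumors and 2.50 to 16.9 in controls. Itga3, an integrin of epithelia and podocytes, rose by 1.55 ± 0.37. Ripk4, a kinase of epidermal differentiation, differed by -0.09 (adjusted p = 0.837). Trp73 and Perp had no signal above background on any array.

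Of 13 tested regulators and effectors of the epithelial to mesenchymal transition 6 rose (46.2%, against 32.2% of all tested) and 1 fell. Their median change was 0.64, against 0.35 for all tested. Zeb1 and Zeb2, repressors of epithelial genes, rose by 2.01 ± 0.31 and 2.31 ± 0.54 (SE) log2 units (limma adjusted p = 0.00159 and 0.00881). Zeb1 read 490 to 883 in tumors and 110 to 239 in controls. Esrp2, a splicing factor of epithelia, fell by 0.90 ± 0.25 (adjusted p = 0.0173). Cdh1, the cadherin of epithelial cells, had a change of 0.36 ± 0.26 that missed the threshold (adjusted p = 0.297), with 621 to 990 in tumors and 410 to 848 in controls, while Cdh2, a cadherin of mesenchyme and of nephron precursors, was at least 1.60-fold higher (adjusted p = 0.00595), with no control above background. Grhl2, an activator of epithelial genes, rose by 1.15 ± 0.42, just under the threshold (adjusted p = 0.0489). Its groups overlapped, with control 2 at 122 above tumors 1 and 2 at 107 and 102.

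Marker lists of cell types known to make vimentin or keratins are given as the sum of their intensities on each array. The brightest probes dominate such a sum. In tumor 2, Acta2 made up 15365 of 16610 for smooth muscle, and Lyz2 9841 of 13211 for leukocytes. In tumor 1, Wt1 made up 2649 of 4931 for cap mesenchyme. For the counts, 32.2% of all tested rose and 12.2% fell. All 9 tested stroma markers rose and 0 fell, with sums of 8280 to 22440 in tumors and 1124 to 3378 in controls, and Lum and Col1a1 rose by 4.65 ± 0.65 and 4.60 ± 0.39 (SE) log2 units. Of 4 smooth muscle markers 3 rose, with sums of 2876 to 16610 in tumors and 510 to 1541 in controls, and Acta2 and Des were the largest at 2.65 ± 0.59 and 2.45 ± 0.35. Of 5 leukocyte and macrophage markers 3 rose, with sums of 1643 to 13211 in tumors and 245 to 1357 in controls, and Lyz2 and Adgre1 rose by 3.04 ± 0.73 and 2.33 ± 0.60. Of 10 cap mesenchyme markers 8 rose, with sums of 3513 to 7717 in tumors and 308 to 767 in controls, and Gdnf was at least 15.1-fold higher while Wt1 rose by 4.16 ± 0.27. Of 8 endothelial markers 0 rose and 0 fell, with sums of 3166 to 9546 in tumors and 3235 to 6435 in controls (limma, smallest adjusted p = 0.113 for Cdh5), and 0 had an unadjusted p under 0.05. Of 2 tested podocyte markers Ptpro rose by 2.14 ± 0.49 and 1 did not pass.

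Tumor 2 held the highest Vim and Krt19, and also the highest sums for stroma, smooth muscle, leukocytes and endothelium. In the controls, Vim was highest in controls 4 and 2, which also had the higher stroma sums, 3378 and 3077, against 1124 and 1195 in controls 1 and 3. Controls 4 and 2 were also highest in most other marker sums, among them smooth muscle, leukocytes, endothelium, cap mesenchyme and collecting duct. Tumor 4, which had the lowest Vim of the tumors, had the highest sum of cap mesenchyme markers. The part of these cell types in the rise of Vim was not tested.

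Cells that make keratins gave a mixed picture. Of 15 tested collecting duct markers 1 rose, 4 fell and 10 did not pass, with a median change of 0.07. Among all tested 32.2% rose and 12.2% fell, with a median change of 0.35. The collecting duct sums were 1932 to 4167 in tumors and 3495 to 8645 in controls. Aqp4 and Aqp2, water channels of the principal cell, fell by 4.37 ± 0.40 and 2.44 ± 0.65 (SE) log2 units, while Ret, a receptor of the ureteric bud tip, was at least 2.42-fold higher and highest in tumor 4. The call for Ret was lost in 5 alternatives, with 64 added (0.98 log2 units), with cyclic loess (1.65), with no filter, with every probe by itself and without tumor 3 (limma adjusted p = 0.0503 to 0.0783). That for Aqp2 was lost with no filter and with every probe by itself (adjusted p = 0.0520 and 0.0565), where 1 gene of this list passed. Without tumor 3 or without control 4, 3 genes of this list passed, against 5. Of 9 tested urothelium markers 2 rose (Krt20 and Foxa1, the second by 1.13 ± 0.31), 0 fell and 7 did not pass. The share that rose, 22.2%, was under the 32.2% of all tested, and the median change was 0.63. The call for Foxa1 was lost with quantile normalization (0.74, adjusted p = 0.116) and cyclic loess (0.67, adjusted p = 0.121). The urothelium sums were 135, 1895, 396 and 268 in tumors 1 to 4, against 95.5, 855, 86.0 and 492 in controls 1 to 4. Tumor 2 and control 2 stood out, and the 5 uroplakins, the defining proteins of the urothelial surface, were between 126 and 310 in tumor 2 and between 5.80 and 66.7 in tumor 4. Tumor 4 was the one highest in Trp63, Krt5, Krt14 and Krt17. Control 2 and control 4 had the highest Krt7 and Krt18 of the controls as well as the highest collecting duct and urothelium sums. The match is not particular to these cells. The same controls were also highest for stroma, smooth muscle, leukocytes, endothelium, podocytes, cap mesenchyme and injured tubules, and lowest for the proximal tubule. The part of these cells in the levels of the keratins was not tested.

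Of 6 tested markers of injured or papillary tubules 5 rose (83.3%, against 32.2% of all tested) and 0 fell. The rise was not uniform. Cd24a, among these 5, was above background in 1 tumor and 0 controls, and was at least 1.09-fold higher. Havcr1 was the marker that did not pass (0.94 ± 1.00 (SE) log2 units, limma adjusted p = 0.470). Its probe read 863, 169, 41.6 and 6.80 across tumors 1 to 4, and tumor 4 lay below every control. The sums of this list were 6013 to 10602 in tumors and 1417 to 3343 in controls. Lcn2, a secreted protein of injured tubules, rose by 3.39 ± 0.77 (SE) log2 units (limma adjusted p = 0.00816). Sox9, a transcription factor of regenerating tubule and ureteric tip, rose by 2.07 ± 0.64 (adjusted p = 0.0283), a call lost in 11 of 23 alternatives. These were each of the other 3 scalings, 64 added (1.10), no filter, every probe by itself, and leaving out any one of tumors 3 and 4 and controls 1, 2 and 3 (adjusted p = 0.0508 to 0.0872). All 9 tested proximal tubule markers fell and 0 rose, with sums of 942 to 29499 in tumors and 37624 to 56600 in controls, and Miox and Slc13a3 fell by 5.05 ± 1.39 and 4.87 ± 1.03. The call for Miox was lost without tumor 3 (-4.35, limma adjusted p = 0.0507), with no filter (0.0595) and with every probe by itself (0.0647). Without tumor 1, the tumor of 5 weeks, the changes were -6.63 for Miox and -6.07 for Slc13a3. The tumor effect at 5 weeks minus that at 4 months was 5.49 for Miox and 5.12 for Slc13a3. These 2 values rest on 1 pair of arrays at 5 weeks, so age cannot be told apart from that pair. Tumor 1 kept the largest proximal sum of the tumors, 29499, and it had the lowest Krt18, Krt19, Trp63 and Krt14 and the highest Krt7 of the tumors.

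**Figure D5:**
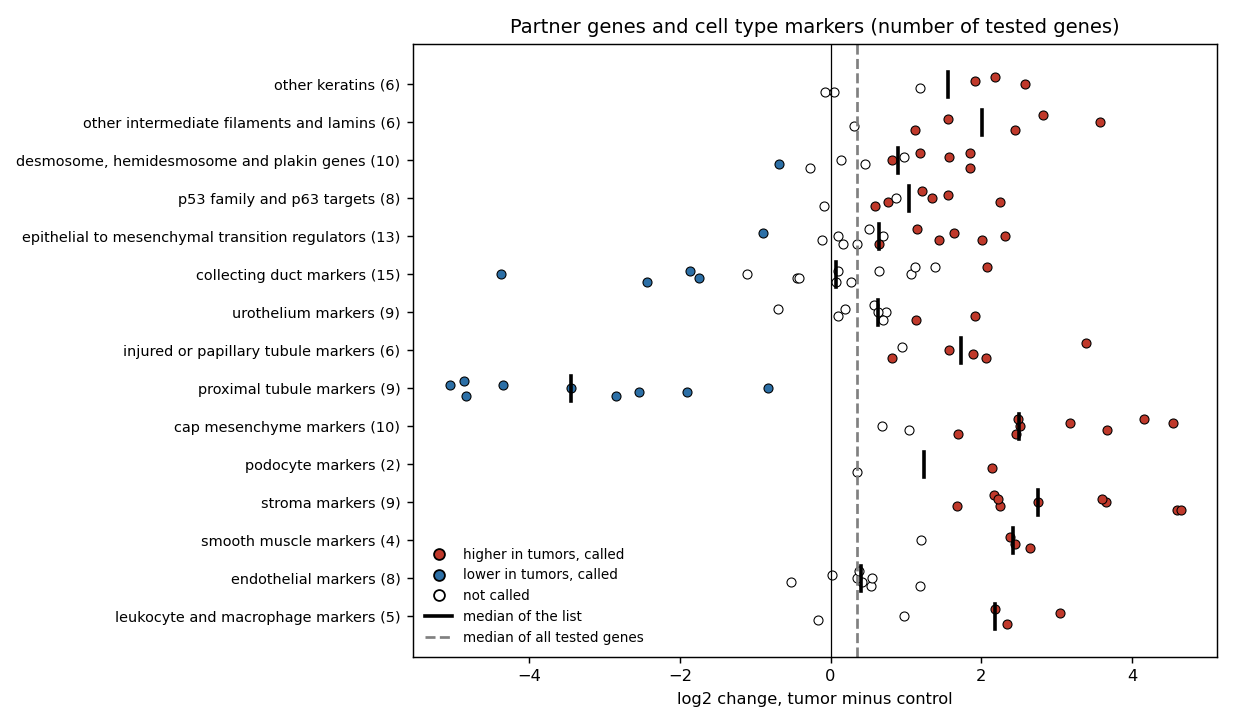
Log2 change, tumor minus control, of each tested gene in the lists of partner genes and cell type markers, with the number of tested genes in brackets. Red points rose, blue points fell, open points did not pass, black bars are list medians and the dashed line is the median of all tested genes at 0.35. All 9 stroma markers lie to the right and all 9 proximal tubule markers to the left.

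The genes with a profile most like each of the 8 were sought among 10531 named tested genes, as the smallest root mean square difference of log2 values over the 8 arrays after centring each gene on its own mean. The nearest to Vim were Sulf1 (0.27), an enzyme that trims heparan sulfate, and Nes (0.31). Krt18 was nearest to Ttc3 (0.13) and Pik3ip1 (0.15), and Krt19 to Hilpda (0.26) and Spsb1 (0.26). Trp63 was nearest to Amer2 (0.31) and Spdl1 (0.32), and Krt14 to Spon2 (0.40) and Ppp1r3c (0.41), both of which also had their highest value in tumor 4. Spon2 read 44.6, 184, 160 and 827 in tumors 1 to 4, against 6.90, 14.7, 3.00 and 16 in controls 1 to 4. Krt7 was nearest to Npy6r (0.20) and Pcolce (0.25), Krt5 to Pfkl (0.18) and Maff (0.22), and Krt8 to Ap1g2 (0.06) and Olfr748 (0.08). The last 2 are dim genes whose log2 values hardly vary, as those of Krt8 do.

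Among the 8 genes themselves, Krt18 and Krt19 were the closest pair (0.51), and each was the other's nearest. Trp63 was nearest to Krt18 (0.52) and Krt14 to Trp63 (0.82). Vim was nearest to Krt19 (0.56). Krt8 and Krt5 were nearest to each other (0.55), which this measure gives for any genes whose log2 values vary little.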

How the data were processed

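Each sample was hybridised to 1 single-colour Illumina bead array. The deposited intensities are linear; the authors had subtracted background, since 20.2% to 28.4% of the values of each array are below 0, and had scaled the arrays, since each has a mean of 274. The sources used here do not name their software. The deposited signals from before normalization were left out, as none of their 16 columns can be matched to a sample by name.

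Intensities were floored at 0 and transformed as log2 of the intensity plus 16. Noise was a scaled median size of the values below 0. The 10279 probes with a mean under the 40th percentile were removed, and the brightest of the 15418 kept probes stood for each gene, leaving 11413 (10531 named). Symbols come from the platform annotation, and 23962 of 23978 named probes matched GRCm38.p6 by gene number. Tumors were tested against controls by limma 3.58.1 under R 4.3.3 (two-sided, no covariate, Benjamini-Hochberg over all tested, threshold 0.05), tested on simulated data. Pairs of genes were compared with exact permutation tests (70 assignments, SciPy 1.17.1). Folds given as "at least" come from the difference of the groups' mean log2 values with 16 added. Values of the dimmer group were first raised to the background limit of their array. With 16 added on both sides, these folds are smaller than ratios of the intensities themselves. Of each list the 2 called genes with the largest rise and the 2 with the largest fall were named, or the one with the smallest p where none passed, and other genes named were chosen after their values were seen. The members and the 15 lists (170 symbols) were chosen with earlier results of these data known. The number of arrays limits the precision.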

Additional observations from a re-analysis of the deposited data

How the results depend on the processing

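Krt18, Krt19, Trp63 and Vim passed the test in all 23 alternatives, with changes of 1.90 to 2.84, 1.27 to 3.24, 1.47 to 3.30 and 2.66 to 3.46 log2 units. Krt5 and Krt7 passed in none of those that tested them (changes 0.20 to 0.91 and 0.11 to 0.91). Krt14 missed the threshold with 64 added (1.61), quantile normalization (2.26), arrays scaled to the same median (2.51), cyclic loess (2.04), no filter and every probe by itself (2.58 in both), and was 1.72 to 3.34 with single arrays left out. Krt8 turned to 0.0335 with quantile normalization and 0.0043 with the arrays of 4 months alone, and Olfr748 to 0.0143 with those arrays, 0.0273 without tumor 1 and 0.0248 with both tumor 1 and control 2 left out, which was added once the data had been seen (-0.1755 to 0.0273 with single arrays left out). Krt19 minus Krt18 turned to 0.70 with 4 added, 0.0233 with arrays scaled to the same median and 0.21 at 4 months alone, and was -0.34 to 0.17 with single arrays left out (0.0111, 0.15 and 0.17 without tumor 3, tumor 4 and control 1). With array weights 7644 genes were called, against 5064, and the age interaction called 885, 1304 with no filter and 1967 with every probe by itself, against 169 (110 to 175 with single arrays left out). The cause of these shifts was not tested. Genes called were 1 to 10 for the collecting duct (5 as reported), 0 to 3 for urothelium (2), 1 to 4 for other keratins (3), 3 to 7 for desmosome and plakin genes (6), 1 to 2 for podocytes (1) and 0 to 2 for endothelium (0). The replicate number as a block called 5088 genes and the same 5 of the 8 genes. Deviations of same-numbered arrays correlated at 0.208, 0.197, 0.113 and 0.0656, so the pairing was not taken as given. The table before normalization was not run, since its columns match no sample. Signal near background limits Krt5, Krt14, Krt19 and Trp63 in controls.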

Other observations

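Across the whole keratin family the array holds 54 probes for 47 genes, and 30 of these genes were too dim to be tested. Of the 17 tested keratins 6 rose (Krt14, Krt17, Krt18, Krt19, Krt20 and Krt23), 0 fell and 11 did not pass. Among all tested genes and unnamed probes 32.2% rose and 12.2% fell, so about as large a share rose among the keratins. The call for Krt14 was lost in 12 of 22 alternatives and that for Krt17 in 2 of 22. All 6 keratins that rose are type I keratins, but the type I keratins Krt10, Krt15 and Krt33a did not pass (changes -0.07, 1.19 and 0.40). Krt222 did not pass either (-0.37, limma adjusted p = 0.0771), and its tumors, at 2.70 to 6.80, lay below its controls, at 9.60 to 11.4, with no array above background. The type II keratins tested (Krt5, Krt7, Krt8, Krt75, Krt76, Krt80 and Krt86) differed by -0.10 to 0.62 log2 units and did not pass (limma adjusted p = 0.260 to 0.871). Krt8 was above background on all 8 arrays, and so was Krt7. Krt75, Krt76, Krt80 and Krt86 had mean intensities of 11.7 to 15.8 in tumors and 7.58 to 14.8 in controls, near background. This grouping by type was made after the values were seen and was not tested.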
